A study of Sus scrofa with 4 samples.

Results

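The genes described here encode factors of pre-mRNA splicing and of mRNA 3′ end processing, and they were taken by gene symbol from the deposited read counts. The symbols were those of SR proteins and their kinases, small nuclear ribonucleoproteins, hnRNP and PTB proteins, U2 and tri-snRNP factors, numbered RBM proteins, cleavage and polyadenylation factors and Integrator subunits. Of the 4381 listed gene symbols, 50 met this rule, and PNN and SRSF10 were set against the others. Not every gene of these classes was listed, and for instance no symbol beginning with SNRNP was. The role groups below are thus parts of their classes. The study compared porcine oocytes that reached metaphase II after maturation in vitro with or without inhibition of SIRT6, a NAD-dependent deacylase of histones and other proteins. Control oocytes were matured without inhibitor, and SIRT6-inhibited oocytes were matured with 100 μM SIRT6-IN-1, a compound that inhibits SIRT6 activity and was dissolved in DMSO. Whether control oocytes received the solvent is not given in the sources used here. Both groups were matured for 42 to 44 h as cumulus-oocyte complexes from abattoir ovaries and were sequenced as 2 libraries each. The labels name Smart-seq2 amplification before NEBNext library preparation, while the study's methods describe column-purified total RNA and NEBNext libraries primed at random, with no Smart-seq2 step. Which of these protocols was used is thus uncertain. For each group 100 oocytes were collected, and how they were divided between its 2 libraries is not given in the sources used here. No source says that the 2 libraries of a group came from separate animals or cultures, so the p-values measure the spread between these libraries, which may be technical.

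Splicing removes introns from pre-mRNA on the spliceosome, which assembles from small nuclear ribonucleoproteins and is guided by SR proteins and hnRNP proteins bound to exons and introns. Cleavage and polyadenylation factors cut the transcript at its 3′ end and add the poly(A) tail, while the Integrator complex cleaves small nuclear RNAs and ends transcription at many other genes. Fully grown oocytes transcribe little, and maturation to metaphase II proceeds on stored maternal mRNAs whose translation and decay are tied to the length of their tails.

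Over the listed genes the controls held 4646129 (library 1) and 3405960 (library 2) counts, against 3239200 (library 1) and 4972602 (library 2) for SIRT6-inhibited oocytes. Paired values below keep this order of libraries. Levels are given as normalized CPM, which are counts scaled to a common library total with edgeR's TMM factors. The smallest level that can be told from 0, set at 3 counts, lay between 0.624 and 0.931 normalized CPM, and it covers counting error only, since amplified reads are not independent molecules. CPM are not corrected for transcript length, so where genes are ordered or divided by level below, the order depends on length as well as on abundance. The splicing and 3′ end genes took 2.27% and 2.26% of the control counts, against 2.33% and 2.31% of the SIRT6-inhibited counts. At least 1 count was found for 49 and 50 of the 50 genes in controls, against 49 and 48 in SIRT6-inhibited oocytes. Over all listed genes, 2411 and 2689 were detected in controls, against 2277 and 2320 in SIRT6-inhibited oocytes, both below both controls. Of 16 oocyte markers, 12 were listed and all 12 had counts, with the highest mean level for H1FOO, an oocyte linker histone. Their summed levels were 49795 and 53833 normalized CPM in controls, against 49670.4 and 49696 in SIRT6-inhibited oocytes. Of 16 markers of cumulus and granulosa cells, 14 were listed and 10 had counts. These markers summed to 133 and 181 normalized CPM in controls, against 80.1 and 186 in SIRT6-inhibited oocytes, with the highest mean level for VCAN, a matrix proteoglycan. FSHR, AMH, TNFAIP6 and AMHR2 were at 0 in all 4 libraries. PTGS2 had 22 and 12 counts in controls and 0 in both SIRT6-inhibited libraries, while CYP11A1 had 0 and 9 counts in controls against 13 and 56. Among the 12 oocyte markers GDF9 and ZP2 were lower in SIRT6-inhibited oocytes at an edgeR unadjusted p under 0.05 (adjusted p = 0.469 and 0.510). The share of all tested genes lower at this p was 5.99%. Of the other markers, ZP3, NOBOX, KIT, ZP4 and MOS had lower estimates and ZAR1, DDX4, NPM2, BMP15 and H1FOO higher ones, all at a p above 0.05. The part of residual cumulus cells and of library depth in the differences below was not tested, and in pooled oocytes fewer cells with a transcript and less of it per cell cannot be told apart.

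With all 4 libraries more of the 50 genes were lower than higher in SIRT6-inhibited oocytes, mostly by small amounts, and the lower side was led by RBM3, SRSF6, SRSF10, RBM25 and PNN. All 50 genes passed the filter on low counts, and 32 of them were lower and 18 higher, against 1261 lower among all 2387 tested genes (52.8%). Their median log2 fold change was -0.10, and that of all tested genes was -0.039. Without control library 1, 26 of the 50 genes (52%) were lower, against 52.5% of all tested genes, and the medians were alike, at -0.035 and -0.036. Without control library 2 the medians were -0.16 for the 50 genes and 0.021 for all tested genes, while they were -0.14 and -0.092 without SIRT6-inhibited library 1 and -0.16 and -0.077 without SIRT6-inhibited library 2. With library totals in place of TMM factors the median was -0.16 for these genes and -0.097 for all tested genes. Single fold changes ran from -1.93 for RBM3 to 0.69 for LSM2, and 4 genes (8%) differed by more than 1 log2 unit, against 499 of all tested genes (20.9%). In edgeR's quasi-likelihood test 8 of the 50 genes (16%) had an unadjusted p under 0.05, while 9.05% of all tested genes did. The lower ones were SRSF6, SRSF10, PNN, INTS13 and SNRPD3, which is 5 genes where the share over all tested genes was 5.99%. The higher ones were CSTF1, INTS3 and RBM38, which is 3 genes where the share over all tested genes was 3.06%. PNN and SRSF10 were named in advance with earlier results of these data known, so their calls carry no weight against these shares. With library totals in place of TMM factors the split was 6 lower and 2 higher (16% of the 50 genes, against 9.30% of all tested genes). It was 3 lower and 3 higher without control library 1 (12% of the 50 genes, against 5.80% of all tested genes), 2 lower and 3 higher without control library 2 (10% against 4.40%), and 8 lower and 1 higher without SIRT6-inhibited library 1 (18% against 11.7%). The 9 genes of the last fit included CLK1, LSM2, PRPF18, PRPF19 and RBM25, which were not among the 8. After Benjamini-Hochberg adjustment over the 2387 genes, 0 of the 50 genes had a p under 0.05 in edgeR's test, and 0% of all tested genes did, where the lowest adjusted p was 0.460. DESeq2's Wald test left 1 of the 50 genes (2%) under 0.05 after adjustment, INTS3, against 35 of all tested genes (1.47%), and limma-voom left 0 of all tested genes.

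Both SIRT6-inhibited libraries lay below both control libraries for 13 of the 50 genes (26%), against 22.2% of all tested genes. Both lay above both controls for 8 genes (16%), against 17.9%. In the remaining 29 genes the groups overlapped. These shares were thus close to those over all tested genes. The 95% interval of the fold change lay within 1 log2 unit of 0 for 26 of the 50 genes (52%), against 776 of all tested genes (32.5%), and for these 26 a 2-fold difference in either direction was outside the interval. The median standard error was 0.30 log2 units for the 50 genes and 0.51 for all tested genes.

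**Figure D1:**
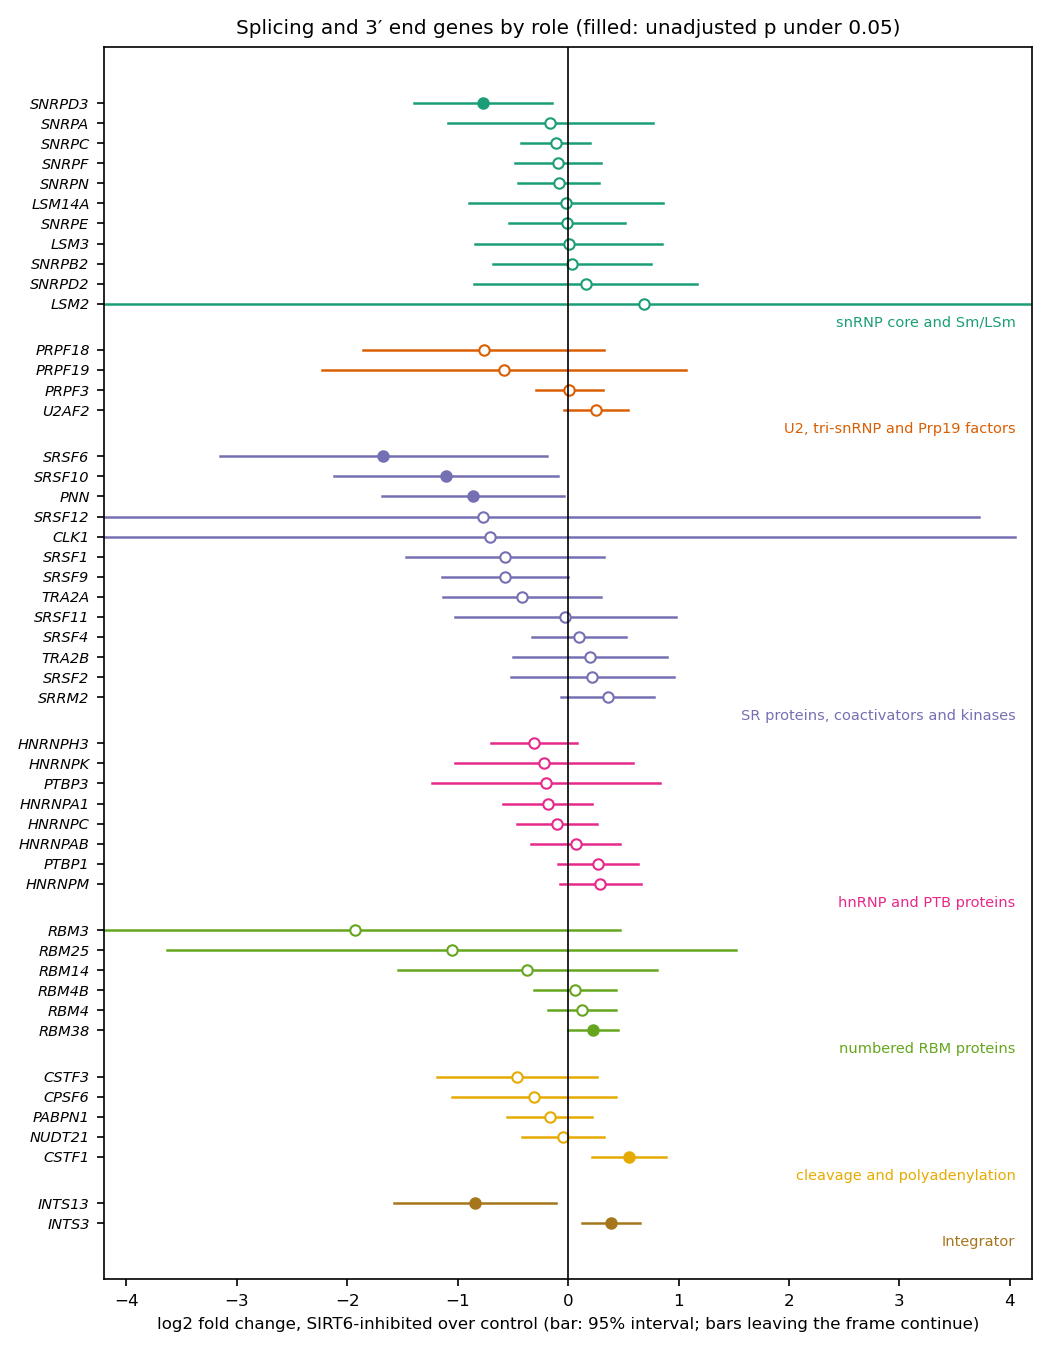
Log2 fold change of 49 of the 50 genes, SIRT6-inhibited over control oocytes (horizontal axis, 2 libraries each), grouped by role. Points are edgeR estimates, filled at an unadjusted p under 0.05, and bars are 95% intervals. The filled points are SNRPD3, SRSF6, SRSF10, PNN and INTS13 on the lower side and RBM38, CSTF1 and INTS3 on the higher side, and LSM2, SRSF12, CLK1 and RBM3 have bars that leave the frame.

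PNN encodes pinin, an SR-related protein of nuclear speckles and of desmosomes that binds the exon junction complex. It had 129.9 and 252 normalized CPM in controls 1 and 2 against 99.7 and 110.1 in SIRT6-inhibited libraries 1 and 2. The SIRT6-inhibited libraries were close to each other and both below the controls, but control library 1 was much nearer to them than control library 2 was. The difference in PNN (log2 fold change -0.86, standard error 0.35, edgeR unadjusted p = 0.0432, adjusted p = 0.534) did not pass adjustment. Without control library 2 the log2 fold change was -0.31 (edgeR unadjusted p = 0.417), so its size rested on that library. PNN had the fifth lowest log2 fold change among the 50 genes, and 16.7% of all tested genes had a lower one. SRSF10 encodes an SR protein that represses splicing when it is dephosphorylated, as happens in mitosis and after heat shock. It had 111 and 96.8 normalized CPM in control oocytes against 66.1 and 31.0 in SIRT6-inhibited oocytes. Here the control libraries were alike, and the spread lay between the SIRT6-inhibited libraries, with library 2 the lower. The log2 fold change of SRSF10 was -1.10 (standard error 0.42, edgeR unadjusted p = 0.0372, adjusted p = 0.526). It was -0.65 without SIRT6-inhibited library 2 (edgeR unadjusted p = 0.145) and -1.75 without SIRT6-inhibited library 1, where edgeR's adjusted p was 0.0196, with 0.0196 to 0.950 over the 14 alternative fits. The unadjusted edgeR p was also above 0.05 without control library 1 (0.125, log2 fold change -1.01) and without control library 2 (0.0620, log2 fold change -1.20). SRSF10 had the third lowest fold change among the 50 genes, with 12.7% of all tested genes lower. By p, other genes came before both, since SRSF10 stood at 6 and PNN at 7 of the 50, with CSTF1 and INTS3 in front. The study also lists primers for quantitative PCR of PNN and SRSF10. It reports that PCR verified several genes it describes as picked at random, but its text gives no PCR values for either gene.

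SR proteins, their coactivators and kinases were the largest role group, with 13 genes, of which 9 were lower and 4 higher. Their median log2 fold change was -0.57, and it kept its sign under each scaling and with each library left out, where it was -0.27 without control library 1 and -0.21 without SIRT6-inhibited library 2. Besides PNN and SRSF10, SRSF6 had an unadjusted p under 0.05, which is 3 of the 13 genes on the lower side, where the share over all tested genes was 5.99%. PNN and SRSF10 were named in advance with earlier results of these data known. Their calls thus carry no weight against that share, and only the call of SRSF6 remains. SRSF6 encodes an SR protein that binds exonic enhancers and takes part in both constitutive and alternative splicing. It had control levels of 72.5 and 41.9 normalized CPM against SIRT6-inhibited levels of 11.2 and 24.6. Both SIRT6-inhibited libraries were below both controls, and each pair of libraries differed within its group as well. The log2 fold change of SRSF6 was -1.67 (standard error 0.62, edgeR unadjusted p = 0.0321, adjusted p = 0.510), with a 95% interval from -3.15 to -0.19. It was -1.24 without control library 1 (edgeR unadjusted p = 0.214) and -1.22 without SIRT6-inhibited library 1 (edgeR unadjusted p = 0.0560).

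In this group of 13 genes, 5 had both SIRT6-inhibited libraries below both controls and 2 had both above. The shares over all tested genes were 22.2% and 17.9%. SRSF1 and SRSF9 were also among the 5 and were named after their values were seen. SRSF1, a founding SR protein that promotes the use of nearby splice sites, had 68.2 and 73.7 normalized CPM in controls against 56.5 and 39.1 in SIRT6-inhibited oocytes. SRSF9 had 352 and 238 normalized CPM in controls against 189.7 and 208 in SIRT6-inhibited oocytes. The fold changes of SRSF1 and SRSF9 were both -0.57, with edgeR unadjusted p-values of 0.174 and 0.0502 (adjusted p = 0.772 and 0.546), so neither passed the test, although the unadjusted p of SRSF9 was under 0.05 in 9 of 14 alternative fits. SRSF9 had a log2 fold change of -0.27 without control library 1. The 2 genes above both controls were SRSF2, named after its values were seen, and SRRM2, a scaffold protein of nuclear speckles. SRSF2 had 75.5 and 61.6 normalized CPM in controls against 82.0 and 77.6 in SIRT6-inhibited oocytes. Its difference did not pass the test (log2 fold change 0.22, edgeR unadjusted p = 0.504, adjusted p = 0.977). SRRM2 had 1752 and 2537 normalized CPM in controls 1 and 2 against 2835 and 2656 in SIRT6-inhibited libraries 1 and 2, and control library 1 was set apart from the other libraries. The difference in SRRM2 did not pass the test (log2 fold change 0.36, standard error 0.18, edgeR unadjusted p = 0.0867, adjusted p = 0.613), while its unadjusted p was under 0.05 in 8 of 14 alternative fits, DESeq2 and limma-voom among them. Its log2 fold change was 0.11 without control library 1 (edgeR unadjusted p = 0.379) and 0.64 without control library 2 (edgeR unadjusted p = 0.000985). SRSF4, an SR protein of the same subfamily as SRSF6, had 326 and 290.3 normalized CPM in control oocytes against 303 and 358 in SIRT6-inhibited oocytes, and the groups overlapped (log2 fold change 0.10, 95% interval -0.33 to 0.53). The fold change of SRSF4 was -0.026 without SIRT6-inhibited library 2. A single library was at 0 for CLK1, a kinase that phosphorylates SR proteins, and for SRSF12, a relative of SRSF10. CLK1 had control levels of 10.8 and 12.9 normalized CPM against SIRT6-inhibited levels of 14.6 and 0, so only SIRT6-inhibited library 2 lacked it. SRSF12 had 14.9 and 11.5 normalized CPM in controls 1 and 2 against 0 and 15.4 in SIRT6-inhibited libraries 1 and 2, so only SIRT6-inhibited library 1 lacked it. In both genes, named after their values were seen, the SIRT6-inhibited libraries disagreed, and the intervals included 0 and were wider than 4 log2 units on the lower side. With the library at 0 as the lone SIRT6-inhibited library, the unadjusted edgeR p was under 0.05 for each.

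**Figure D2:**
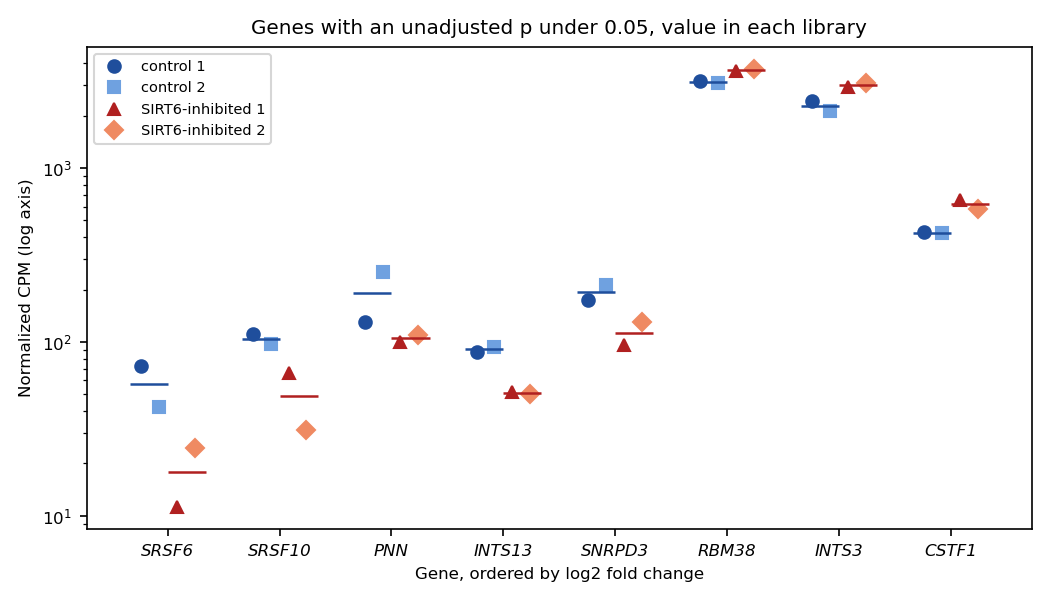
Normalized CPM (vertical log axis) in each of the 4 libraries for the 8 genes with an unadjusted p under 0.05, ordered by log2 fold change. Each symbol is 1 library and each line is the mean of 2 libraries. The SIRT6-inhibited libraries lie below both controls for SRSF6, SRSF10, PNN, INTS13 and SNRPD3 and above both for RBM38, INTS3 and CSTF1, and the control libraries of PNN stand apart at 129.9 and 252.

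Among the 11 Sm, LSm and snRNP genes, 7 were lower and 4 higher, with a median log2 fold change of -0.018 that was 0.0039 with RLE factors, 0.0042 with DESeq2 and 0.011 without control library 1. It was between -0.20 and -0.11 with any of the other libraries left out. At an unadjusted p under 0.05 there was 1 of the 11 genes, which is near the share of 9.05% over all tested genes. This gene was SNRPD3, which encodes a protein of the Sm ring around spliceosomal small nuclear RNAs. It had 174 and 211 normalized CPM in control oocytes against 95.6 and 129 in SIRT6-inhibited oocytes. The groups did not overlap, and the difference was larger than the spread within either pair but did not pass adjustment (log2 fold change -0.77, standard error 0.26, edgeR unadjusted p = 0.0223, adjusted p = 0.487). SNRPD3 lost its unadjusted p under 0.05 without control library 2 (log2 fold change -0.63, edgeR unadjusted p = 0.125) and without SIRT6-inhibited library 1 (-0.58, edgeR unadjusted p = 0.0934). SNRPD2, whose protein pairs with another Sm protein in the same ring and which was named after its values were seen, had 58.9 and 41.6 normalized CPM in controls against 46.6 and 65.8 in SIRT6-inhibited oocytes, which overlapped. SNRPC, a protein of the U1 particle that helps it bind the 5′ splice site, had control levels of 1237 and 1039 normalized CPM against SIRT6-inhibited levels of 1035 and 1072. Its interval ran from -0.42 to 0.20 log2 units, so a large change was outside it. SNRPF, a further Sm ring protein, had 853 and 646 normalized CPM in controls 1 and 2 against 689 and 719 in SIRT6-inhibited libraries 1 and 2, and the groups overlapped, as they did for SNRPC. The log2 fold changes of SNRPC and SNRPF were -0.11 and -0.091, and without control library 1 they were 0.011 and 0.12. LSM2, a subunit of the ring on U6 RNA that was named after its values were seen, had 0 and 18.3 normalized CPM in control oocytes against 29.5 and 0 in SIRT6-inhibited oocytes, and each group held 1 library at 0. SNRPN shares its transcript with SNURF and much of its sequence with SNRPB, and SNRPE has processed copies in mammalian genomes, so both counts are uncertain. LSM14A was taken by its symbol, but its protein acts in cytoplasmic mRNA storage granules.

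Of the 5 genes of U2, tri-snRNP and Prp19 factors, 0 had an unadjusted p under 0.05 in edgeR's, DESeq2's or limma-voom's test, where the shares over all tested genes were 9.05%, 9.93% and 9.68%, so a count of 0 in so few genes is near those shares. In this group 3 genes were lower and 2 higher, with a median log2 fold change of -0.50. The median was -0.83 without control library 1 and -0.89 without SIRT6-inhibited library 1. It was 0.041 without control library 2 and 0.0014 without SIRT6-inhibited library 2. U2AF2, the large subunit of the factor that binds the polypyrimidine tract before the 3′ splice site, had control levels of 693 and 745 normalized CPM against SIRT6-inhibited levels of 872 and 841. Both SIRT6-inhibited libraries were above both controls, by a small amount (log2 fold change 0.25, standard error 0.12, edgeR unadjusted p = 0.0801, adjusted p = 0.593). PRPF3, a protein of the U4/U6 particle, had 699 and 733 normalized CPM in controls 1 and 2 against 752 and 691 in SIRT6-inhibited libraries 1 and 2, a log2 fold change of 0.011 with an interval from -0.29 to 0.31. With library totals only it was -0.047, and it was -0.031 without control library 1 and -0.056 without SIRT6-inhibited library 1. PRPF18 and PRPF19 were named after their values were seen. PRPF18, which acts in the second catalytic step, had 61.7 and 129 normalized CPM in control oocytes against 69.2 and 43.1 in SIRT6-inhibited oocytes. PRPF19, the ubiquitin ligase of the Prp19 complex, had control levels of 35.4 and 104 normalized CPM against SIRT6-inhibited levels of 69.9 and 23.7. In both genes control library 2 and SIRT6-inhibited library 1 were above control library 1 and SIRT6-inhibited library 2, so the libraries did not sort by treatment, and the groups overlapped.

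The 8 hnRNP and PTB genes had small differences, with 5 lower and 3 higher, but 1 was lower without control library 1 and 3 were without SIRT6-inhibited library 1. At an unadjusted p under 0.05 there were 0 of the 8 in edgeR's, DESeq2's or limma-voom's test (9.05%, 9.93% and 9.68% of all tested genes), and so few genes allow no reading of that count. Their median log2 fold change was -0.14, and it was 0.042 without control library 1, 0.020 without SIRT6-inhibited library 1 and -0.28 without control library 2. HNRNPA1, which binds exonic and intronic silencers, had 1288 and 974 normalized CPM in controls 1 and 2 against 916 and 1074 in SIRT6-inhibited libraries 1 and 2, and its count is uncertain because many processed copies of the gene exist in mammalian genomes. HNRNPC, which binds uridine-rich stretches of nascent transcripts, had 1026 and 827 normalized CPM in control oocytes against 813 and 917 in SIRT6-inhibited oocytes. In both genes control library 1 was the highest and SIRT6-inhibited library 1 the lowest, and the groups overlapped. The log2 fold change was -0.18 for HNRNPA1 (95% interval -0.59 to 0.22) and -0.098 for HNRNPC (-0.46 to 0.26). Without control library 1 these values were 0.022 and 0.057. HNRNPM had the smallest p of the group, with control levels of 456 and 486 normalized CPM against SIRT6-inhibited levels of 522 and 631. Both SIRT6-inhibited libraries of HNRNPM were above both controls (log2 fold change 0.29, edgeR unadjusted p = 0.101, adjusted p = 0.634). The value for HNRNPM was 0.15 without SIRT6-inhibited library 2 (edgeR unadjusted p = 0.547). HNRNPH3, a protein of the hnRNP H and F family that was named after its values were seen, stood on the other side, with 403 and 399 normalized CPM in controls against 347 and 302 in SIRT6-inhibited oocytes. Its groups did not overlap either (log2 fold change -0.31, edgeR unadjusted p = 0.102, adjusted p = 0.635). PTBP1, a repressor of exons flanked by pyrimidine-rich tracts that was named after its values were seen, had 783 and 672 normalized CPM in controls against 798 and 961 in SIRT6-inhibited oocytes.

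Of the 6 numbered RBM genes, whose proteins share an RNA-binding motif and not a single pathway, 3 were lower and 3 higher. Their median was -0.15, and it was -0.076 without SIRT6-inhibited library 1. RBM38, which binds AU-rich and uridine-rich elements and regulates mRNA stability, had 3186 and 3091 normalized CPM in controls 1 and 2 against 3632 and 3722 in SIRT6-inhibited libraries 1 and 2. The libraries of a group were close to each other, and the groups did not overlap (log2 fold change 0.23, standard error 0.095, edgeR unadjusted p = 0.0483, adjusted p = 0.546). The unadjusted edgeR p of RBM38 was above 0.05 without control library 2 (0.0820, log2 fold change 0.20), without SIRT6-inhibited library 1 (0.197, log2 fold change 0.24) and without SIRT6-inhibited library 2 (0.265, log2 fold change 0.21). It was under 0.05 in 7 of 14 alternative fits. RBM4B had 968 and 867 normalized CPM in control oocytes against 845 and 1073 in SIRT6-inhibited oocytes, and the groups overlapped. RBM4 and RBM4B encode splicing regulators of closely similar sequence, so how reads were divided between them is uncertain. The log2 fold change of RBM4B was 0.064, and it was -0.019 without control library 2 and -0.12 without SIRT6-inhibited library 2. RBM3, induced by cold, had the lowest fold change of all 50 genes and was named after its values were seen. It had control levels of 18.1 and 32.4 normalized CPM against SIRT6-inhibited levels of 3.10 and 9.99. Both SIRT6-inhibited libraries were below both controls, but at these low counts the interval ran from -4.34 to 0.47 log2 units (edgeR unadjusted p = 0.0983, adjusted p = 0.624). RBM25, a spliceosome-associated regulator also named after its values were seen, had 21.4 and 19.1 normalized CPM in controls against 16.5 and 3.12 in SIRT6-inhibited oocytes, so most of the difference lay in SIRT6-inhibited library 2.

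The 5 cleavage and polyadenylation genes differed in direction, with 4 lower and 1 higher. Their median was -0.17, with -0.039 without control library 1 and -0.29 without control library 2. CSTF1 encodes the subunit of the cleavage stimulation factor that carries WD repeats, and it had the smallest p of the 50 genes. It had 427 and 421 normalized CPM in controls 1 and 2 against 659 and 584 in SIRT6-inhibited libraries 1 and 2. The control libraries were nearly equal, and both SIRT6-inhibited libraries were above them. The log2 fold change of CSTF1 was 0.55 (standard error 0.14, edgeR unadjusted p = 0.00639, adjusted p = 0.460), and 87.2% of all tested genes had a lower one. Without SIRT6-inhibited library 1 it was 0.46 (edgeR unadjusted p = 0.0557). CSTF3, the scaffold subunit of the same factor that was named after its values were seen, stood on the other side, with 82.0 and 94.8 normalized CPM in controls against 60.2 and 68.1 in SIRT6-inhibited oocytes. The groups did not overlap for CSTF3, but its log2 fold change of -0.46 did not pass the test (edgeR unadjusted p = 0.175, adjusted p = 0.772), and the difference between CSTF1 and CSTF3 was not tested. NUDT21, a subunit of cleavage factor I that binds UGUA motifs upstream of the cleavage site, had 1039 and 869 normalized CPM in control oocytes against 833 and 1018 in SIRT6-inhibited oocytes. The groups overlapped, with a log2 fold change of -0.043 (95% interval -0.41 to 0.33) that was 0.083 without control library 1 and 0.090 without SIRT6-inhibited library 1. PABPN1, the nuclear poly(A)-binding protein, was also named after its values were seen. It had 496 and 414 normalized CPM in controls against 398 and 412 in SIRT6-inhibited oocytes, and SIRT6-inhibited library 2 was only just below control library 2. The lengths of poly(A) tails were not measured in these libraries.

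Both Integrator genes had an unadjusted p under 0.05, in opposite directions, where the shares over all tested genes were 5.99% lower and 3.06% higher. INTS3, a subunit that also belongs to a complex that binds single-stranded DNA at breaks, had control levels of 2441 and 2142 normalized CPM against SIRT6-inhibited levels of 2933 and 3069. INTS13, a subunit of a separate module of Integrator that is also needed for the placing of dynein at the nucleus, had 87.8 and 93.7 normalized CPM in controls 1 and 2 against 51.2 and 50.0 in SIRT6-inhibited libraries 1 and 2. For each gene the libraries of a group were close to each other and the groups did not overlap. The log2 fold change was 0.39 for INTS3 (standard error 0.11, edgeR unadjusted p = 0.0108, adjusted p = 0.460). It was -0.84 for INTS13 (standard error 0.31, edgeR unadjusted p = 0.0298, adjusted p = 0.510). INTS3 had an adjusted p of 0.0214 in DESeq2's Wald test, with adjusted p-values from 0.0214 to 0.950 over the 14 alternative fits. Without SIRT6-inhibited library 2, INTS3 had a log2 fold change of 0.35 (edgeR unadjusted p = 0.0653). The size for INTS13 moved little with any library left out, at -0.90 and -0.80 without control libraries 1 and 2 and -0.87 and -0.83 without SIRT6-inhibited libraries 1 and 2. The unadjusted edgeR p for INTS13 was above 0.05 in each of these fits and in DESeq2's test, and in edgeR's it was 0.0923, 0.107, 0.0701 and 0.0872 in the order given.

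**Figure D3:**
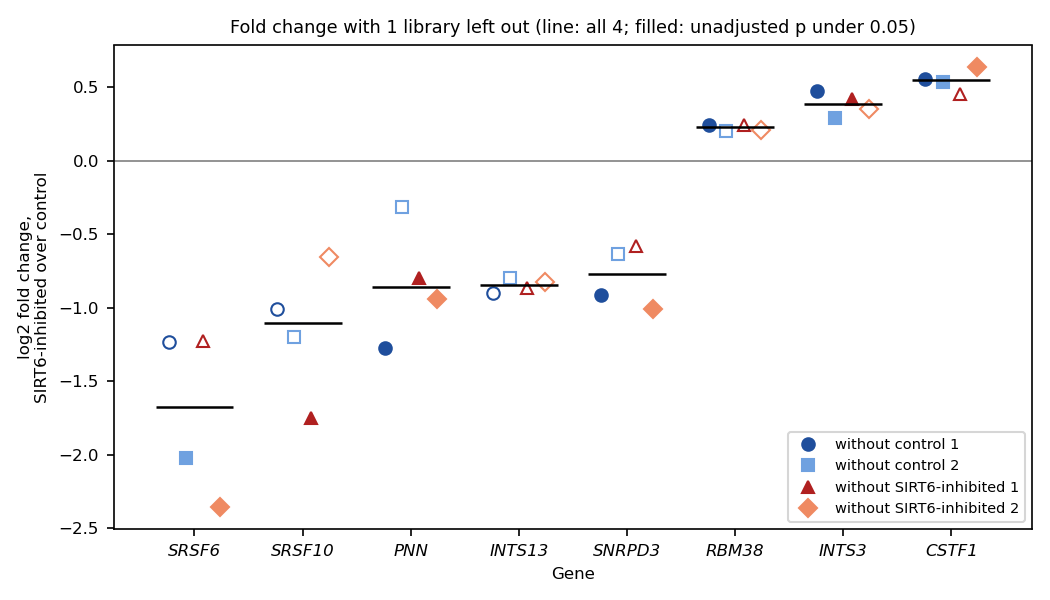
Log2 fold change, SIRT6-inhibited over control (vertical axis), of the 8 genes with an unadjusted p under 0.05, refitted with 1 library left out. Each symbol is the library left out, filled where the unadjusted p stayed under 0.05, and lines show the fit with all 4 libraries. No gene changed direction, PNN moved from -0.86 to -0.31 without control library 2, and INTS13 had open symbols throughout.

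A further list held 183 other genes of the spliceosome, mRNA export, SMN complex and 3′ end processing, of which 38 were listed and 37 tested. Of these, 19 were lower and 18 higher, with a median log2 fold change of -0.011 that was -0.068 with library totals only (24 lower), -0.043 with limma-voom (22 lower), 0.0069 with RLE factors and with DESeq2, 0.054 without control library 1 and 0.019 without control library 2. At an unadjusted p under 0.05 there was 1 lower gene and 1 higher gene, which is 2 of 37 (5.41%) against 9.05% of all tested genes. DDX46, a helicase that remodels the U2 particle at the branch point, was the lower one, with 29.1 and 76.2 normalized CPM in control oocytes against 13.4 and 8.33 in SIRT6-inhibited oocytes. Both SIRT6-inhibited libraries were below both controls, and control library 2 was far above control library 1 (log2 fold change -2.28, standard error 0.70, edgeR unadjusted p = 0.0153, adjusted p = 0.469). DDX46 had a log2 fold change of -1.43 without control library 2 (edgeR unadjusted p = 0.229) and of -2.66 without SIRT6-inhibited library 1, where edgeR's adjusted p was 0.0334, with 0.0334 to 0.976 over the 14 alternative fits. PCBP2, which binds cytosine-rich RNA and acts in mRNA stability and splicing, was the higher one, with control levels of 526 and 482 normalized CPM against SIRT6-inhibited levels of 735 and 670.0. Its groups did not overlap either (log2 fold change 0.48, standard error 0.13, edgeR unadjusted p = 0.0101, adjusted p = 0.460). Without control library 2 it was 0.41 (edgeR unadjusted p = 0.0584), as it was without SIRT6-inhibited library 1 (edgeR unadjusted p = 0.0763). SLBP, which binds the stem-loop of histone mRNAs, had 3735 and 3157 normalized CPM in controls 1 and 2 against 3197 and 3640.5 in SIRT6-inhibited libraries 1 and 2. SMN1, which loads Sm proteins onto small nuclear RNAs, had 1979.5 and 1751 normalized CPM in control oocytes against 1786 and 1840.2 in SIRT6-inhibited oocytes. GEMIN8, a partner of SMN1 in the same complex, had control levels of 1287 and 1069 normalized CPM against SIRT6-inhibited levels of 1258 and 1356. These 3 genes overlapped between the groups, with log2 fold changes of -0.011 for SLBP, -0.041 for SMN1 and 0.15 for GEMIN8. The sign for SLBP turned with RLE factors and with DESeq2 (0.0069 in each) and was 0.075 without SIRT6-inhibited library 1, and without control library 1 the values were 0.11 for SLBP and 0.041 for SMN1. GEMIN8 was at 0.28 without control library 1, 0.018 without control library 2 and 0.093 without SIRT6-inhibited library 2.

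Lower values were gathered among the genes with few counts. Of the 22 splicing and 3′ end genes with a mean under 100 normalized CPM, 18 (81.8%) were lower in SIRT6-inhibited oocytes, with a median log2 fold change of -0.42. Over all tested genes under this level, 884 of 1505 (58.7%) were lower, with a median of -0.21. Without control library 2 this became 731 of 1482 (49.3%) with a median of 0.016, while the 22 genes had 17 lower and a median of -0.39. Over all tested genes under this level the median was -0.32 without control library 1 (61.2% lower). It was -0.31 without SIRT6-inhibited library 1 (61.0% lower) and -0.20 without SIRT6-inhibited library 2 (57.1% lower). Of the 28 genes at 100 normalized CPM or more, 14 were lower, with a median of -0.00022, against 42.7% and 0.044 over the 882 tested genes at this level. The median of the 28 genes was 0.019 with RLE factors and -0.054 with library totals only. Without control library 1, 9 of the 28 were lower with a median of 0.094 (0.092 over the 882 genes), and without control library 2, 17 were lower with a median of -0.099 (0.0046 over the 882 genes). The division at 100 normalized CPM was set after the counts had been seen, and a count depends on transcript length as well as on abundance. The 22 genes and the 1505 genes were not matched in level or precision. Their median standard errors were 0.42 and 1.03 log2 units. The median of the 22 genes lay between -0.52 and -0.37 in the other fits, and 15 to 17 of them were lower with 1 library left out. SRSF6, SRSF10 and INTS13 were among the 22 genes, while CSTF1, INTS3, RBM38, PNN and SNRPD3 were among the 28. Across the 50 genes Spearman's rho between mean level and fold change was 0.53, against 0.16 across all tested genes, where genes are not independent replicates and share the same 4 libraries. Among the 22 genes the SIRT6-inhibited libraries differed from each other by a median factor of 1.64 and the control libraries by 1.25. The lower number of detected genes in both SIRT6-inhibited libraries ran in the same direction, and its part in this pattern was not tested.

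**Figure D4:**
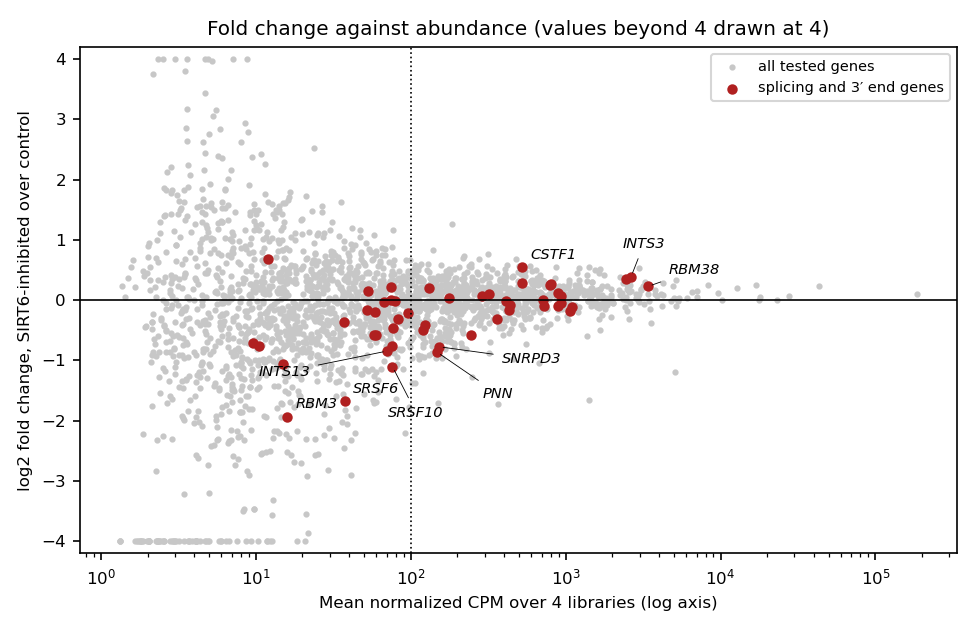
Log2 fold change, SIRT6-inhibited over control (vertical axis), against mean normalized CPM over 4 libraries (horizontal log axis, not corrected for transcript length). Grey points are the 2387 tested genes, red points the 50 splicing and 3′ end genes, and the dotted line marks 100 normalized CPM. To its left 18 of 22 red points lie below 0, and to its right 14 of 28 do.

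The order of the libraries differed from gene to gene. SIRT6-inhibited library 1 was the lowest of the 4 for 19 of the 50 genes (38%, against 28.2% of all tested genes), SIRT6-inhibited library 2 for 15, control library 2 for 11 and control library 1 for 5 (10%, against 24.7% of all tested genes). Libraries tied at 0 were counted once, for the first in the order control 1, control 2, SIRT6-inhibited 1, SIRT6-inhibited 2. The 5 genes of control library 1 thus include LSM2, which was also at 0 in SIRT6-inhibited library 2, and the shares of all tested genes include such ties. RBM3 and SRSF6 were lowest in SIRT6-inhibited library 1, and SRSF10, RBM25, PRPF18 and PRPF19 in SIRT6-inhibited library 2. The levels were also set against the total counts of the libraries. In 9 genes, among them PRPF18, PRPF19, LSM2, LSM14A and SRSF11, both libraries with smaller totals (control 2 and SIRT6-inhibited 1) were above both with larger totals, and this share of 18% was near the 17.7% of all tested genes. In 14 genes, among them HNRNPA1, HNRNPC, HNRNPK, NUDT21, SNRPF and RBM4B, both libraries with larger totals were above the others, which is 28% against 15%. On the log2 scale the levels of the 50 genes had a Pearson's r of 0.964 between control library 1 and SIRT6-inhibited library 2 and of 0.943 between control library 2 and SIRT6-inhibited library 1. It was 0.934 between control library 2 and SIRT6-inhibited library 2, 0.932 between the control libraries, 0.863 between control library 1 and SIRT6-inhibited library 1 and 0.858 between the SIRT6-inhibited libraries. Over all tested genes r was highest between the control libraries (0.909), with 0.892 between control library 2 and SIRT6-inhibited library 1, 0.886 between control library 1 and SIRT6-inhibited library 2 and 0.867 to 0.885 for the remaining pairs. Among the 50 genes LSM2 was at 0 in control library 1 and SIRT6-inhibited library 2, SRSF12 in SIRT6-inhibited library 1 and CLK1 in SIRT6-inhibited library 2. The weight of these genes in r was not tested. The values of r describe libraries across genes that are not independent. The part of depth in these orders was not tested.

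**Figure D5:**
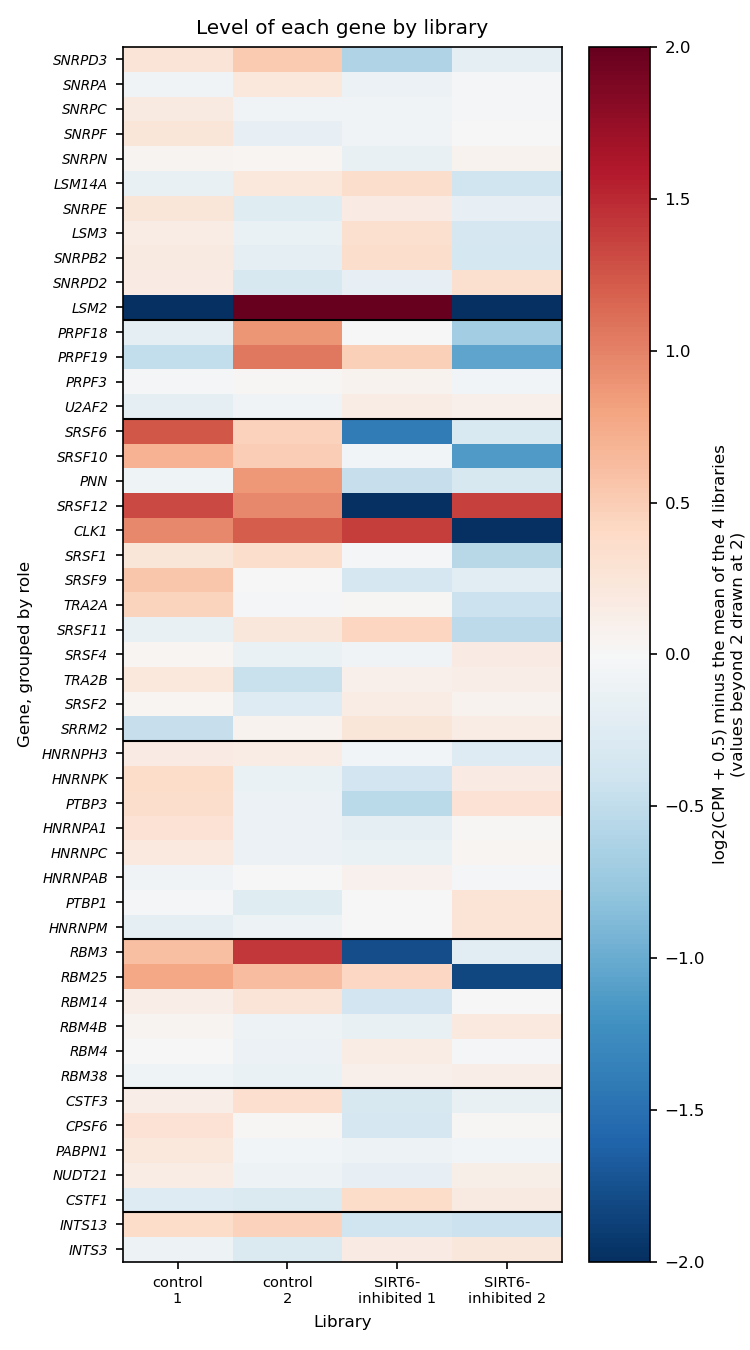
Level of 49 of the 50 genes (vertical, grouped by role) in each of the 4 libraries (horizontal), as log2 of normalized CPM plus 0.5 minus the mean of the libraries. Red is above and blue below the mean of a gene, with values beyond 2 drawn at 2. SNRPD3, SRSF6, SRSF10, INTS13 and RBM3 are red in both controls, while PRPF18, PRPF19 and LSM2 are red in control 2 and paler or red in SIRT6-inhibited 1.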

How the data were processed

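RNA was sequenced from 2 libraries of control and 2 of SIRT6-inhibited porcine oocytes. The authors deposited read counts per gene symbol, as whole numbers without normalization. The submitters' processing notes name TopHat2 2.0.13, Cufflinks 2.2.1, Cuffnorm and Cuffdiff and the builds susScr11 and mm10, with no role for any of them, so no coordinates are given. The counting tool and the strand setting are not given in the sources used here.

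The whole table was fitted with edgeR 4.0.16 in R 4.3.3. Genes were kept by filterByExpr (minimum count 10, minimum total 15), scaled by TMM and compared with the quasi-likelihood test, group as the only term and Benjamini-Hochberg adjustment over 2387 genes. The standard error is the log2 fold change divided by the square root of F. Alternatives were RLE, upper-quartile and total scaling, a fit lacking the 10 most abundant genes, no filter, a minimum of 10 counts in each library, a replicate block, DESeq2 1.42.0, limma-voom (limma 3.58.1) and each library left out. A block with crossed numbers was added after seeing the data.

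The genes and lists were chosen with earlier results of these data known. Named genes were PNN, SRSF10, those with an unadjusted p under 0.05, and in each role the 2 with the highest mean level and the one with the smallest p, with the 3 highest of the related list and its genes with an unadjusted p under 0.05. Others are marked in the text, apart from SNRPN, SNRPE, RBM4 and LSM14A, which were named for an uncertain count or role. HNRNPK, SRSF11 and LSM14A were named for the order of their libraries, after their values were seen. The result of 1 gene is not reported here. All 50 symbols matched the porcine RefSeq annotation, used for names. No sequences were used here.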

Additional observations from a re-analysis of the deposited data

How the results depend on the processing

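Numbers of calls moved with the fit, and directions moved less. Of all tested genes, 0 passed adjustment in edgeR's quasi-likelihood test (216 at an unadjusted p under 0.05), 43 did without a filter on low counts, 2 with at least 10 counts in every library, 35 with DESeq2 and 0 with limma-voom. With 1 library left out, where a lone library is assumed to vary like the pair of the other group, the adjusted number ran from 0 to 77 and the unadjusted from 111 to 302. Of the 50 genes, 1 passed adjustment with DESeq2 (INTS3), and 0 to 1 did with a library left out. The 1 was SRSF10 without SIRT6-inhibited library 1 (edgeR adjusted p = 0.0196, with 0.0196 to 0.950 over its alternatives). At an unadjusted p, 2 to 8 of the genes were lower and 1 to 3 higher with a library left out. Taken in both directions together, these counts rose and fell with those of all tested genes given above. Their range is thus not a result about the 50 genes alone. The median log2 fold change of the 50 genes was -0.16 with library totals only, and -0.16 to -0.035 with a library left out. The labels number the libraries 1 and 2 in both groups without saying that numbers mark a pairing, and deviations of same-numbered libraries correlated at -0.117 across genes. With the replicate block 6 genes passed adjustment, and 8 of the 50 genes (16%, against 7.37% of all tested genes) had an unadjusted p under 0.05, 7 of them shared with the fit without it (RBM38 left at edgeR unadjusted p = 0.0979, SRRM2 entered at 0.0192), with a median of -0.099. With the numbers crossed, chosen after seeing the data, the calls were 2 after adjustment, 241 without it (10.1%), and 10 among the 50 genes (20%). The sign turned for some small log2 fold changes. PRPF3 was -0.047 with library totals only, and SLBP was 0.0069 with RLE factors and with DESeq2. With a library left out, HNRNPA1 ran from -0.38 to 0.022, HNRNPC from -0.25 to 0.057, NUDT21 from -0.20 to 0.090, PRPF3 from -0.056 to 0.070, RBM4B from -0.12 to 0.22, SLBP from -0.13 to 0.11, SMN1 from -0.13 to 0.041, SNRPC from -0.24 to 0.011, SNRPF from -0.28 to 0.12 and SRSF4 from -0.026 to 0.21. The causes were not tested.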
